A study of Mus musculus with 18 samples.

Results

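The 39 protein-coding Hox genes of the mouse, in 4 clusters, were followed through RNA-seq libraries of lumbar dorsal root ganglia. Members were taken by symbol, as every protein-coding gene named Hox with a cluster letter and a paralog number after estimated reads had been summed per gene. They are 39 of 48529 genes in all, with 11 in cluster A (chromosome 6), 10 in cluster B (chromosome 11), 9 in cluster C (chromosome 15) and 9 in cluster D (chromosome 2). These ganglia contain the sensory neurons of limb and trunk beside satellite glia, Schwann cells, vessels and immune cells. In the MM group, 9 male C57BL/KaLwRijHsd mice had 5TGM1-GFP myeloma cells, a malignant plasma cell line that carries a green fluorescent protein label, injected into the femur. In the SHAM group, 9 males of the same strain were given vehicle into the femur. Both groups were 5 to 7 weeks old, and each library held whole L2, L3 and L4 ganglia of the operated side, taken 24 days after surgery and not split by level. The model is limited to a single tumour line in a single inbred strain and sex, and both groups underwent the femoral surgery.

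Hox genes encode transcription factors that bind DNA through the homeodomain. They lie in clusters in which low-numbered genes sit at the 3′ end and are switched on early and from the head end of the embryo onwards, while high-numbered genes at the 5′ end are restricted to progressively more caudal segments. Genes with the same number in different clusters are paralogs, and their combination marks the axial level of vertebrae, limbs, spinal motor neurons and sensory ganglia, part of which persists in adult tissue.

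The libraries held between 19218249 and 21771206 estimated reads. All 14 sensory neuron markers on the list used (such as Prph and Avil) passed the filter on low counts, with a summed level of 7447 to 14787 CPM (reads scaled for library size) in MM and 11263 to 14274 CPM in SHAM, as the tissue label states. Markers of B, plasma and myeloma cells summed to 136 to 8438 CPM in MM and 87.6 to 139 CPM in SHAM, with reads for each of the 10 listed in at least 1 SHAM library, and they were highest in MM9. The library SHAM8 stood apart through skeletal muscle markers, which summed to 18449 CPM against a SHAM median of 27.6 CPM. In bulk tissue, fewer cells of a type and less RNA per cell cannot be told apart.

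Summed over the clusters, Hox transcripts were concentrated in the middle paralogs and dropped off between paralogs 9 and 11. Per length (TPM, a read density scaled for transcript length and library, on which genes are compared with each other below), the 39 members summed to 424 ± 31.4 TPM in SHAM and 378 ± 77.6 TPM in MM (SD, n = 9 each). The single libraries ran from 380 to 459 TPM in SHAM and from 237 to 481 TPM in MM, so the groups overlapped. Cluster A contributed 191 TPM to the SHAM sum, cluster B 106, cluster C 66.3 and cluster D 61.4 TPM. Paralogs 7 to 9 held 55.7% ± 1.97 of the SHAM sum, paralogs 4 to 6 held 22.7% ± 1.26, paralogs 1 to 3 held 10.8% ± 0.876 and paralog 10 held 10.7% ± 1.31 (SD, n = 9). The 9 members with paralog numbers 11 to 13 together held 0.101% ± 0.0913. In SHAM 26 members had a mean of at least 1 TPM, among them all 10 of paralogs 4 to 6 and all 9 of paralogs 7 to 9. Nearest to that level were Hoxc5 above it, at 1.46 ± 0.311 TPM, and Hoxa2 below it, at 0.797 ± 0.348 TPM (SD, n = 9). In Hoxb1 and Hoxd12 no read was assigned in any of the 18 libraries, which allows up to 3 reads, or 0.140 to 0.160 CPM, in each.

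**Figure D1:**
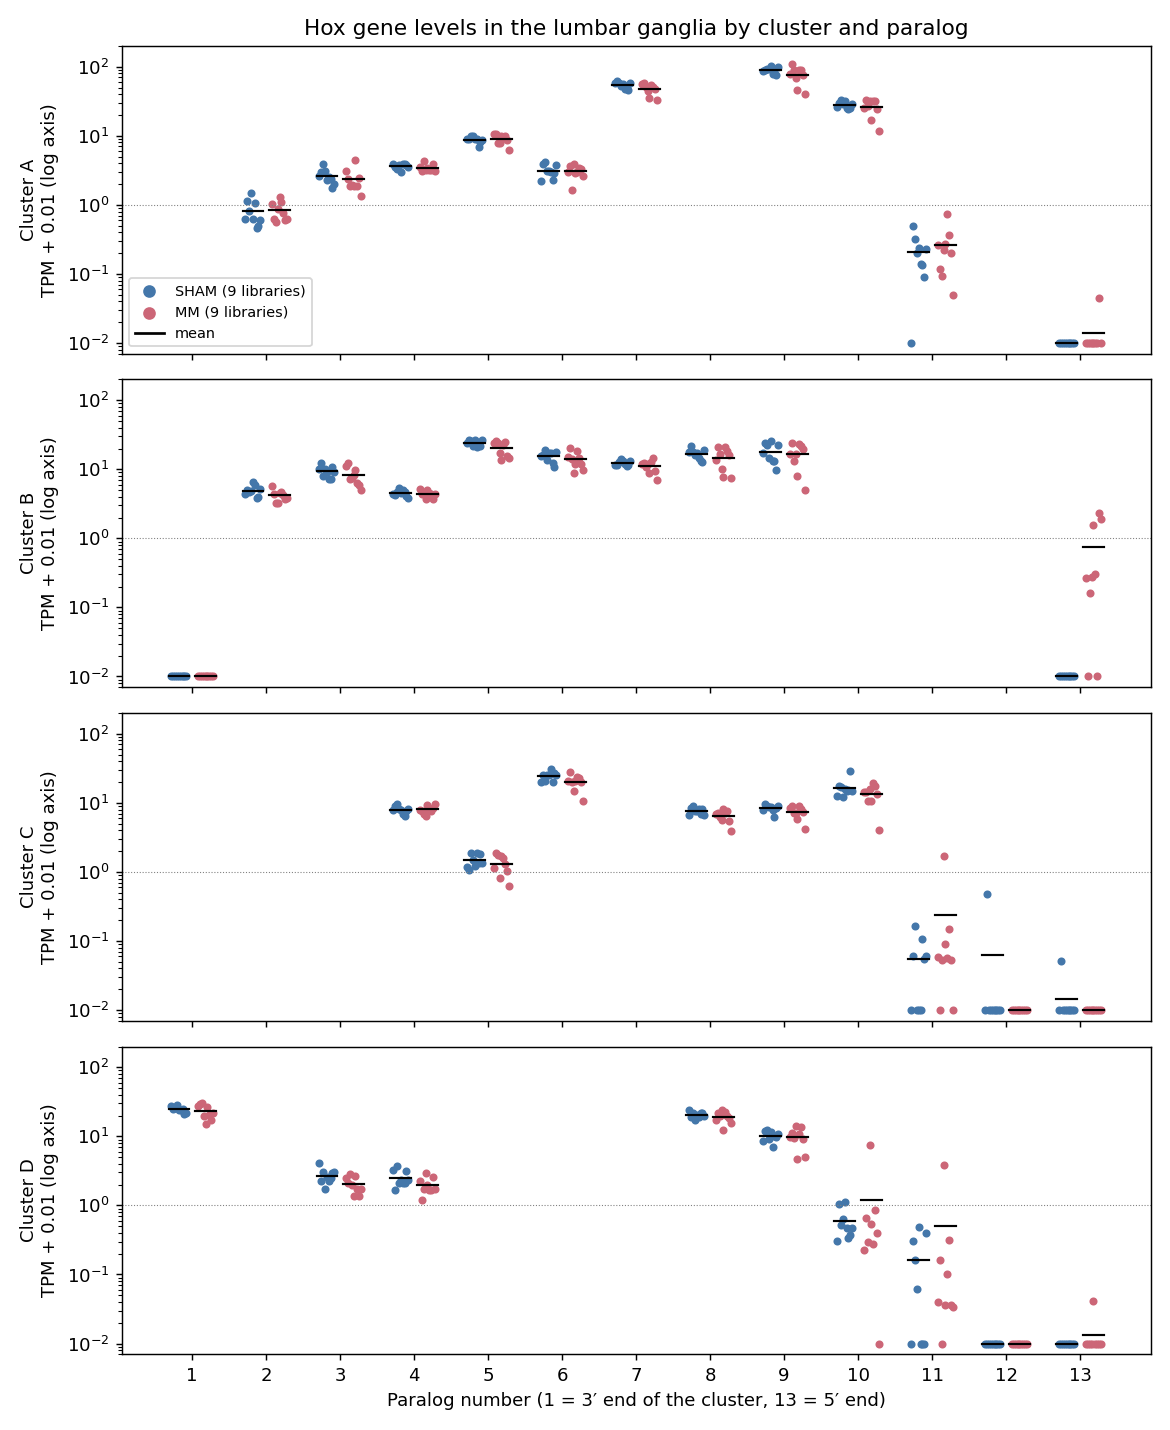
Level of Hox genes (TPM with 0.01 added, log axis) against its paralog number, 1 panel per cluster, with 1 point per library (blue SHAM, red MM, 9 each), black bars for means and a dotted line at 1 TPM. In clusters A and C the level drops after paralog 10, in clusters B and D after paralog 9, and at Hoxb13 all blue points lie at 0 while 7 red points do not.

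Among the rostral paralogs 1 to 3, a single gene stood above the rest. Hoxd1, which in mouse is known for its expression in pain-sensing neurons and their axon patterning, ran from 20.8 over a median of 24.8 to 28.7 TPM in SHAM and from 15 over 21.7 to 30.7 TPM in MM. Its paralog Hoxb1, a hindbrain patterning gene, had no read. MM5 was the lowest library for Hoxd1 and MM3 the highest, and the groups overlapped. Hoxb3, Hoxb2, Hoxd3 and Hoxa3 followed at 9.33 ± 1.65, 4.92 ± 0.854, 2.70 ± 0.667 and 2.61 ± 0.635 TPM in SHAM (SD, n = 9). Hoxd3, known for its part in forming the first neck vertebra, ran from 1.70 over 2.58 to 4.06 TPM in SHAM and from 1.34 over 1.97 to 2.87 TPM in MM. Hoxa2, which patterns the second pharyngeal arch, ran from 0.445 over 0.608 to 1.47 TPM in SHAM and from 0.547 over 0.758 to 1.27 TPM in MM.

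Paralogs 4 to 6 were all present, between 1.46 TPM for Hoxc5 and 24.3 ± 3.56 TPM for Hoxc6 (SHAM mean, SD, n = 9). Hoxc6, a marker of forelimb-level motor neurons in the spinal cord, ran from 19.7 over a median of 25.0 to 30.4 TPM in SHAM and from 10.5 over 20.5 to 27.7 TPM in MM. Hoxb5, which in the neural crest acts in enteric neuron formation, ran from 21.3 over 23.7 to 27 TPM in SHAM and from 13.6 over 22.2 to 25.9 TPM in MM. For both genes the lowest libraries were MM libraries, and the upper parts of the groups overlapped. Hoxa5, a regulator of neck and upper thoracic identity and of lung development, ran from 6.81 over 8.87 to 9.95 TPM in SHAM and from 6.27 over 9.50 to 10.7 TPM in MM. Hoxc4 ran from 6.48 over 7.95 to 9.48 TPM in SHAM and from 6.53 over 7.81 to 9.74 TPM in MM. For both genes the groups covered nearly the same range.

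The highest levels of all members were those of Hoxa9 and Hoxa7, at SHAM means of 88.6 and 54.3 TPM. The other members of paralogs 7 to 9 were at or below 20.6 TPM (Hoxd8). Hoxa10, Hoxd1, Hoxc6 and Hoxb5 lay above that, at 28.2, 24.7, 24.3 and 24.2 TPM. In clusters B, C and D the highest members were Hoxb5, Hoxc6 and Hoxd1. Hoxa9, which patterns the trunk and is also known as a leukaemia gene, ran from 75.8 over a median of 90.7 to 101 TPM in SHAM and from 39.7 over 77.9 to 109 TPM in MM. Of all genes, 1909 had a higher SHAM mean TPM than Hoxa9. Hoxa7 ran from 46.6 over 57.1 to 61.8 TPM in SHAM and from 33.3 over 50.3 to 58.0 TPM in MM. By TPM, MM9, MM5 and MM4 were the lowest libraries for both genes, below every SHAM library, while the other MM libraries overlapped with SHAM. In CPM, MM4 was below every SHAM library for Hoxa7, at 40.2, but not for Hoxa9, at 53.2 against 49.4 in SHAM6. Hoxd8 ran from 17.5 over 20.6 to 23.8 TPM in SHAM and from 12.3 over 19.4 to 24.3 TPM in MM. Hoxb8, which in mouse affects grooming and the dorsal spinal cord, ran from 12.6 over 17.5 to 21.8 TPM in SHAM and from 7.42 over 16.1 to 21.2 TPM in MM. Hoxc8, a brachial-level gene of motor neuron pools, ran from 6.65 over 7.72 to 9.14 TPM in SHAM and from 3.93 over 6.81 to 8.22 TPM in MM. Hoxb9 varied most of the 26 members within SHAM, with a coefficient of variation (CV, SD as a share of the mean) of 31.5%. Its values ran from 9.80 over 17.1 to 25.4 TPM in SHAM and from 5.03 over 16.7 to 24.3 TPM in MM. Hoxb7 varied least, with a CV of 8.26% in SHAM.

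The caudal end of expression did not fall at the same paralog in every cluster. In cluster A the SHAM mean went from 28.2 ± 3.12 TPM for Hoxa10 to 0.197 ± 0.142 TPM for Hoxa11, and in cluster C from 16.5 ± 4.99 TPM for Hoxc10 to 0.0440 ± 0.0532 TPM for Hoxc11 (SD, n = 9). In cluster D it went from 10.2 ± 1.78 TPM for Hoxd9 to 0.579 ± 0.303 TPM for Hoxd10, and in cluster B, which has no members between 9 and 13, from 18 ± 5.66 TPM for Hoxb9 to no read for Hoxb13 (SD, n = 9). Paralog 10 genes pattern the lumbar region and hind limb, and Hoxc10 marks lumbar motor neurons, while paralog 11 genes are known for sacral and distal limb patterning. Hoxa10 ran from 24.4 over a median of 29.0 to 32.7 TPM in SHAM and from 11.7 over 27.3 to 33.5 TPM in MM. Hoxc10 ran from 12.3 over 15.2 to 29.0 TPM in SHAM and from 4.0 over 14.3 to 19.4 TPM in MM. Hoxa11 ran from 0 over 0.189 to 0.486 TPM in SHAM and from 0.0402 over 0.213 to 0.739 TPM in MM. The groups overlapped for all 3.

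The stretch of the homeobox that encodes the helix which contacts DNA was compared between these caudal genes. It is given 5′ to 3′ on the coding strand as bases 124 to 171 of the 180-base homeobox (GENCODE M21 transcripts), with capitals for bases that differ from Hoxa10.
Hoxa10: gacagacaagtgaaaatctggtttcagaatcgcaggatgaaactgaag
Hoxc10: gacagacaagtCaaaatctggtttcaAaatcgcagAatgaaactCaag
Hoxd10: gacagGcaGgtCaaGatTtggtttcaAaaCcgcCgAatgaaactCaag
Hoxc11: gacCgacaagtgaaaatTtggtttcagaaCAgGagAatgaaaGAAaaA
Hoxd11: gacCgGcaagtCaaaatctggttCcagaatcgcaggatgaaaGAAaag
Hoxb13: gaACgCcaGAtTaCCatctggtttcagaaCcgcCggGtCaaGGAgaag
Within these 48 bases Hoxc10 differed from Hoxa10 at 4, Hoxd11 at 7, Hoxd10 and Hoxc11 at 10 and Hoxb13 at 15. These counts are of bases and do not rank the encoded helices. Read in codons, the stretches of Hoxc10 and Hoxd10 encode the same amino acids as that of Hoxa10. Those of Hoxc11, Hoxd11 and Hoxb13 do not. Over the whole homeobox the identity to Hoxa10 was 80.6% for Hoxc10, 78.9% for Hoxd10, 70.0% for Hoxc11, 69.4% for Hoxd11 and 58.9% for Hoxb13. A homeobox was found in all 39 members, and the median identity was 80.6% over 42 pairs with the same paralog number and 61.1% over all 741 pairs. The longest run of identical bases shared between any transcripts of Hoxc10 and Hoxd10 was 16 bases, of Hoxc11 and Hoxd11 13 bases, and of Hoxb13 and any other member 17 bases. It was longer for Hoxb9 and Hoxc9, at 50 bases.

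Part of the signal came from transcripts that the annotation does not mark as coding. Of the 26 members at 1 TPM or more, 13 have such transcripts and in 7 they held over 10% of the gene's estimated reads in SHAM. For Hoxa10 their share was 44.0% ± 2.61 in SHAM and 46.4% ± 5.19 in MM (SD, n = 9 each), most of it in Hoxa10-203, which held 43.1% ± 3.55 of the SHAM reads and was the transcript with the largest share. Counting coding transcripts alone, Hoxa10 was at 14.5 ± 1.72 TPM and Hoxa9 at 62.1 ± 7.07 TPM in SHAM (SD, n = 9). The share was 37.5% ± 12.4 for Hoxd3, 26.8% ± 3.96 for Hoxc8 and 13.4% ± 1.80 for Hoxa9 in SHAM, and 37.6% ± 15.5, 27.2% ± 6.80 and 11.9% ± 2.55 in MM (SD, n = 9 each). By coding transcripts alone 26 members again had a SHAM mean of at least 1 TPM. The leading transcripts of the other high members were coding, with 92.1% of reads in Hoxa7-201, 96.8% in Hoxb5-201, 99.5% in Hoxb9-201, 94.0% in Hoxb8-201, 86.3% in Hoxc6-201 and 76.0% in Hoxd8-201 in SHAM. Hoxd1, Hoxc10, Hoxd10 and Hoxa5 each had all their reads on a single transcript. In that annotation 9 members share exon bases with another gene on the same strand, and the largest share was 53.1% of the exon bases of Hoxd3, with Gm28230, which also shares 39.1% of those of Hoxd4. The estimates of these genes are therefore uncertain.

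No member differed between MM and SHAM by the test across all genes. The filter on low counts kept 28 members (9 of cluster A, 8 of B, 6 of C and 5 of D), and 11 had too few reads. Of the 28, 0 were called higher and 0 lower at adjusted p under 0.05, against 2.99% of all 15774 genes tested, 2.75% higher and 0.241% lower (edgeR quasi-likelihood test with Benjamini-Hochberg adjustment over all genes). At unadjusted p under 0.05 the count was again 0, against 22.5% of all genes, and DESeq2 called 0 members, against 7.61% of all genes. The lowest adjusted p was 0.243, for Hoxd3 at a log2 fold change of -0.28 ± 0.14 (SE), where 1 of 9 MM libraries exceeded the median of SHAM in CPM. Next came Hoxb5 at -0.20 ± 0.11 (adjusted p = 0.255) and Hoxc8 at -0.21 ± 0.11 (adjusted p = 0.268) by the same edgeR test. On the other side, Hoxa5 and Hoxc4 were both at 0.08, with SE of 0.09 and 0.10, and Hoxa2 at 0.11 ± 0.24, with adjusted p of 0.593, 0.665 and 0.805 in edgeR.

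The values of the 28 members lay close together, mostly just below 0. Their log2 fold changes ran from -0.28 to 0.11 with a median of -0.11, against a median of -0.004 over all genes tested. Below 0 were 22 of 28, or 78.6%, against 51.1% of all genes. The 14 sensory neuron markers had a median of -0.14, with 0 called, and their part in the Hox values was not tested. For 25 of the 28 an approximate 95% interval of the fold change (from the SE) stayed within 1.5-fold in either direction, and for all 28 within 2-fold. This interval is somewhat narrower than the edgeR test implies. For Hoxd3 it ran from -0.56 to -0.01, while the unadjusted p was 0.0602 in edgeR. The values also depended on the libraries richest in tumour transcripts. Without MM5, MM8 and MM9 the log2 fold changes of Hoxa9, Hoxa10, Hoxb9 and Hoxd1 were at 0.04, 0.09, 0.10 and 0.06, above 0 in place of below it, and that of Hoxc4 was at -0.10, below 0 in place of above it. No member had groups whose CPM did not overlap, against 0.146% of all genes.

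**Figure D2:**
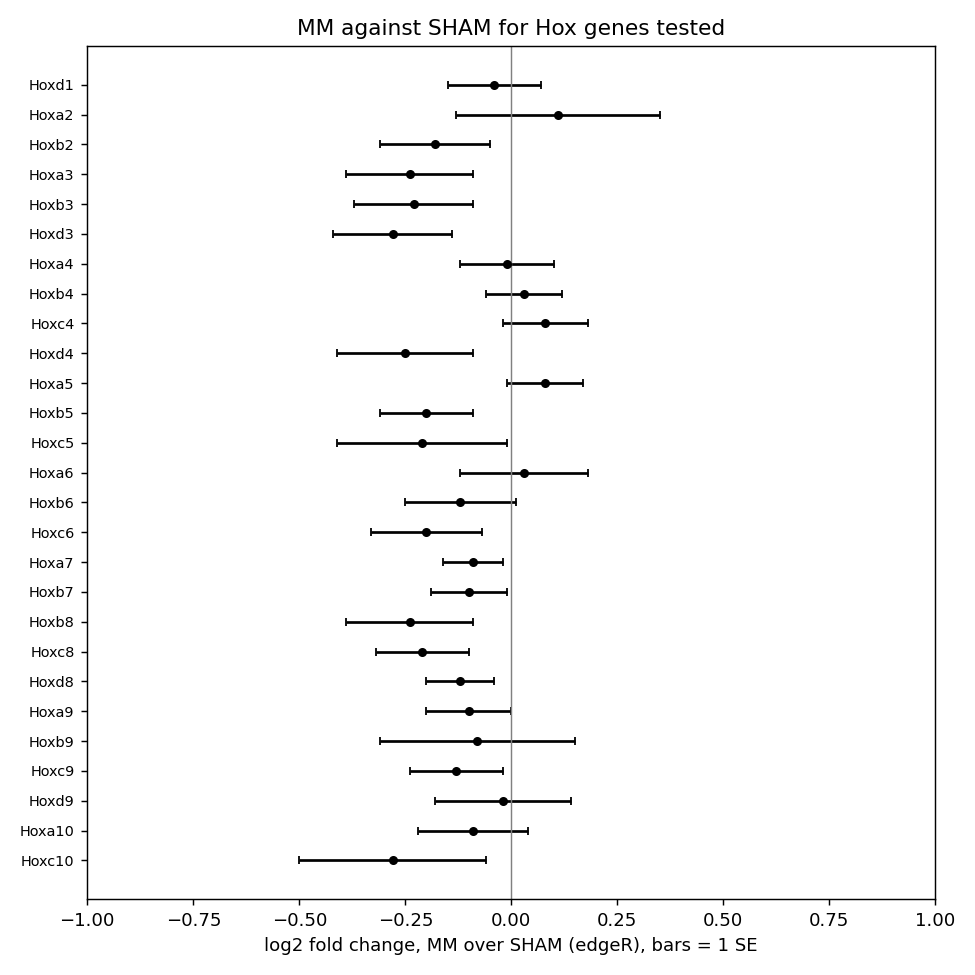
Log2 fold change of MM over SHAM (points, with bars of 1 SE, edgeR) for 27 Hox genes tested, ordered by paralog number from top to bottom. All points lie between -0.28 and 0.11, and 22 of 27 lie below 0.

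The Hox levels of single MM libraries lay farther from each other than those of SHAM libraries. Over the 26 members at 1 TPM or more, the median CV of TPM was 24.6% in MM and 13.2% in SHAM. Of these members, 24 of 26 had the higher CV in MM. Over all 15313 genes at that level the medians were 19.1% and 13.4%, and 75.3% had the higher CV in MM. No test was made of this difference. In MM9 the median log2 ratio of TPM to the SHAM median was -0.78 over the 26 members. By TPM, 25 of 26 members were below their SHAM median there and 14 of 26 lower than in any other library. The median ratio there was -0.58 for paralogs 1 to 3, -0.47 for paralogs 4 to 6, -0.99 for paralogs 7 to 9 and -1.62 for paralog 10. Hoxc10 was at -1.92, Hoxb9 at -1.77 and Hoxa10 at -1.31 in MM9, while Hoxc4, at 9.74 TPM, was higher than in any other library. The sensory neuron markers had a median log2 ratio of -0.62 in MM9. All these ratios are of TPM, and ratios in CPM can differ. In CPM, MM9 had Hoxa9 at 36.8 and Hoxc10 at 4.49, against SHAM means of 56.0 and 16.1. There Hoxb4, at 7.01 CPM, and Hoxd1, at 23.7 CPM, were above their SHAM means of 6.18 and 23.2 CPM.

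MM5 was the next lowest, with a median log2 ratio of -0.44 over the 26 members, -0.44 for paralogs 1 to 3, -0.08 for paralogs 4 to 6, -0.75 for paralogs 7 to 9 and -0.63 for paralog 10, and -0.87 for the neuron markers. These ratios too are of TPM. In CPM, MM5 had Hoxa9 at 35.0 against a SHAM mean of 56.0. There Hoxb2, at 4.7 CPM, and Hoxc6, at 15.3 CPM, were above their SHAM means of 4.3 and 14.6 CPM. In MM8, the third library rich in tumour transcripts, the ratio of TPM was -0.24 for the members and -0.37 for the neuron markers. The remaining MM libraries lay between -0.30 and 0.11 and the SHAM libraries between -0.16 and 0.12. Without MM5, MM8 and MM9 the median CV in MM was 17.3%, and 16 of 26 members had the higher CV in MM. MM4, at -0.30 for the members, had the neuron markers at 0.02 and Ighg2b, an immunoglobulin gene, at 390 CPM, against 2334 CPM in MM8. The part of neuron and tumour transcripts in these ratios was not tested.

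**Figure D3:**
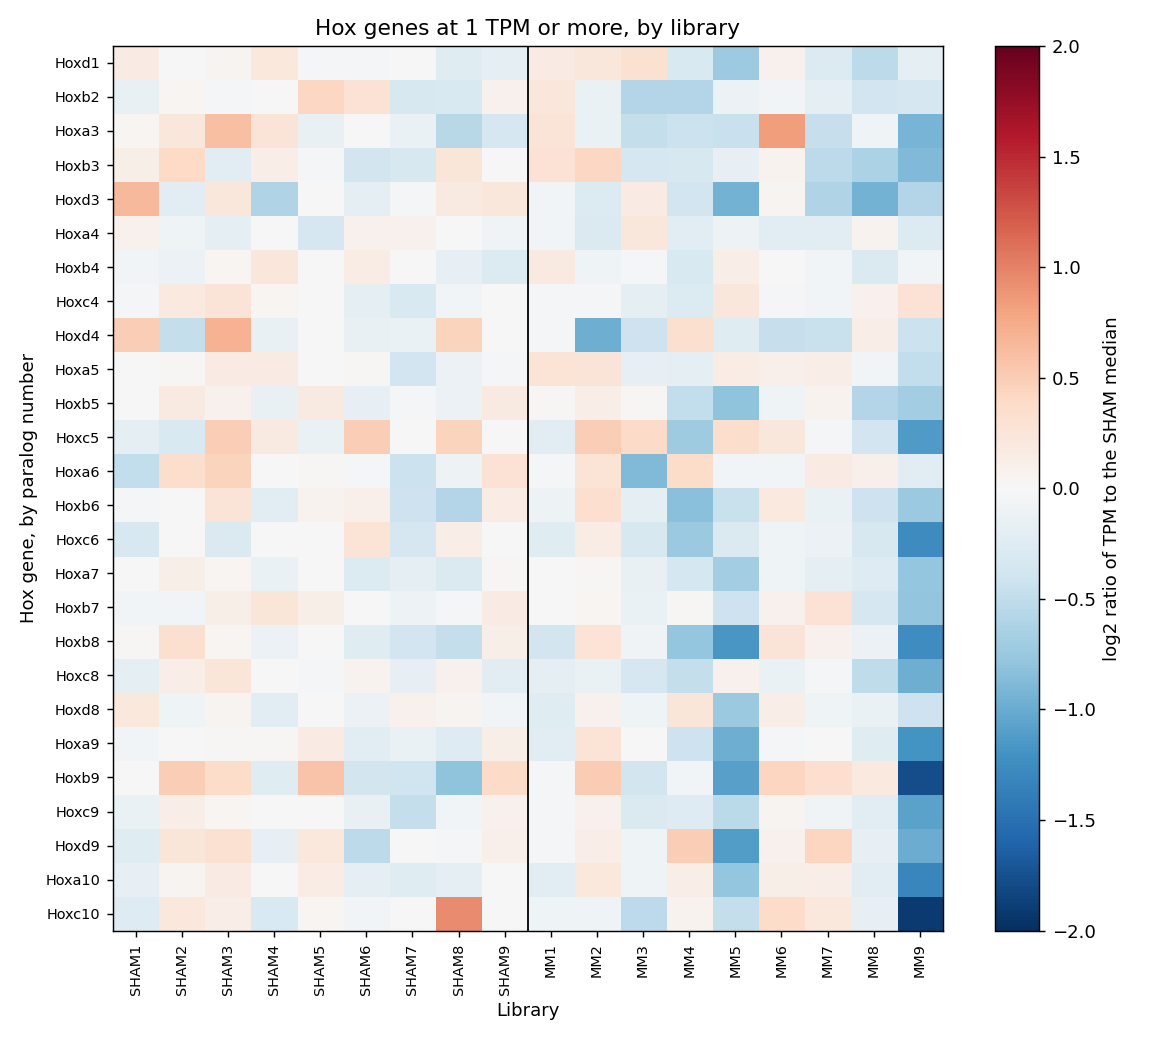
Log2 ratio of TPM to the SHAM median (colour, limits of -2 and 2) for the 26 Hox genes at 1 TPM or more (rows, by paralog number) in each library (columns, SHAM left, MM right). MM9 and MM5 are blue in most rows, in MM9 deepest towards the caudal paralogs, and SHAM8 stands out in red for Hoxc10.

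In the library MM4, genes of the caudal boundary were present that were near 0 elsewhere. Hoxd10 had 135 reads in MM4, or 7.52 TPM, against 0 to 0.845 TPM (median over all 9 MM libraries 0.391) in the rest of MM and 0.296 over 0.466 to 1.12 TPM in SHAM. Hoxd11 had 116.9 estimated reads, or 3.80 TPM, against at most 0.305 TPM in the other MM libraries and 0 over 0.0523 to 0.481 TPM in SHAM. Hoxc11 had 34 reads, or 1.67 TPM, against at most 0.139 TPM in the other MM libraries and 0 over 0.0455 to 0.154 TPM in SHAM. In CPM the next highest of the 17 other libraries was passed 6.74-fold by Hoxd10, 7.89-fold by Hoxd11 and 11-fold by Hoxc11. Without MM4 the MM means were 0.400 ± 0.268, 0.0817 ± 0.103 and 0.05 ± 0.0446 TPM (SD), within the SHAM range. These 3 members did not pass the filter on low counts and have no adjusted p.

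MM4 was searched for other genes of this kind after these values had been seen. Of 14588 genes at 1 CPM or more in MM4, 6 exceeded 4 times the next highest library (with 3 reads added to it), and 3 of the 6 were Hoxd10, Hoxd11 and Hoxc11. The others were Srd5a2, a steroid reductase gene, the pseudogene Gm14117, and Gm28309, a non-coding gene that shares exon bases with both Hoxd10 and Hoxd11, so that their reads may be split between them. In the other 17 libraries the same search gave 0 to 4 genes, with 129 in SHAM8, and no Hox gene in any. Most Hoxd11 reads in MM4, 109 of them, were assigned to Hoxd11-201, a transcript not marked as coding, and 7.55 to the coding Hoxd11-202. Hotair, a non-coding RNA of cluster C between Hoxc11 and Hoxc12, had its highest level in MM4 too, at 0.390 CPM. In the same library Hoxd9 was at a log2 ratio of 0.49 and Hoxd8 at 0.24 to the SHAM median, both the highest of all libraries by TPM. In CPM, Hoxd8 was higher in SHAM8, at 31.2 against 28.1 in MM4. Hoxb6, Hoxb8 and Hoxc6 were at -0.84, -0.78 and -0.74. The sensory neuron markers were at 0.02 in MM4. The 11 spinal cord markers summed to 41.3 CPM in MM4, within 18 to 69.1 CPM in SHAM, and the motor neuron markers Mnx1 and Chat were at 0 and 0.0488 CPM. Which ganglia reached each library is not recorded beyond the shared label L2 to L4, and the part of dissection in these values was not tested.

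A score of caudal against rostral level described the libraries in a single number. It is the mean log2(TPM + 0.1) of the Hox10 and Hox11 paralogs minus that of paralogs 4 to 6, and it was -2.53 ± 0.39 in SHAM and -2.34 ± 0.89 in MM (SD, n = 9 each). Hoxd10 and the Hox11 paralogs had few reads outside MM4, so the score leans on levels near the 0.1 TPM added. SHAM libraries ran from -3.14 to -1.95. MM libraries ran from -3.37 in MM9 to -0.23 in MM4, and the highest without MM4 was -1.87. The group difference of 0.19 became -0.07 without MM4 and 0.44 without MM5, MM8 and MM9. With the Hox10 paralogs alone as the caudal members it was -0.07. The value of 0.19 was smaller than the SD of single libraries in either group, which is not a test of a difference in means. The values of -0.07 and 0.44 come from other sets of libraries or members, whose SD is not given. The setting with 0.44 still held MM4, while the other MM libraries it kept lay between -2.84 and -1.87.

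**Figure D4:**
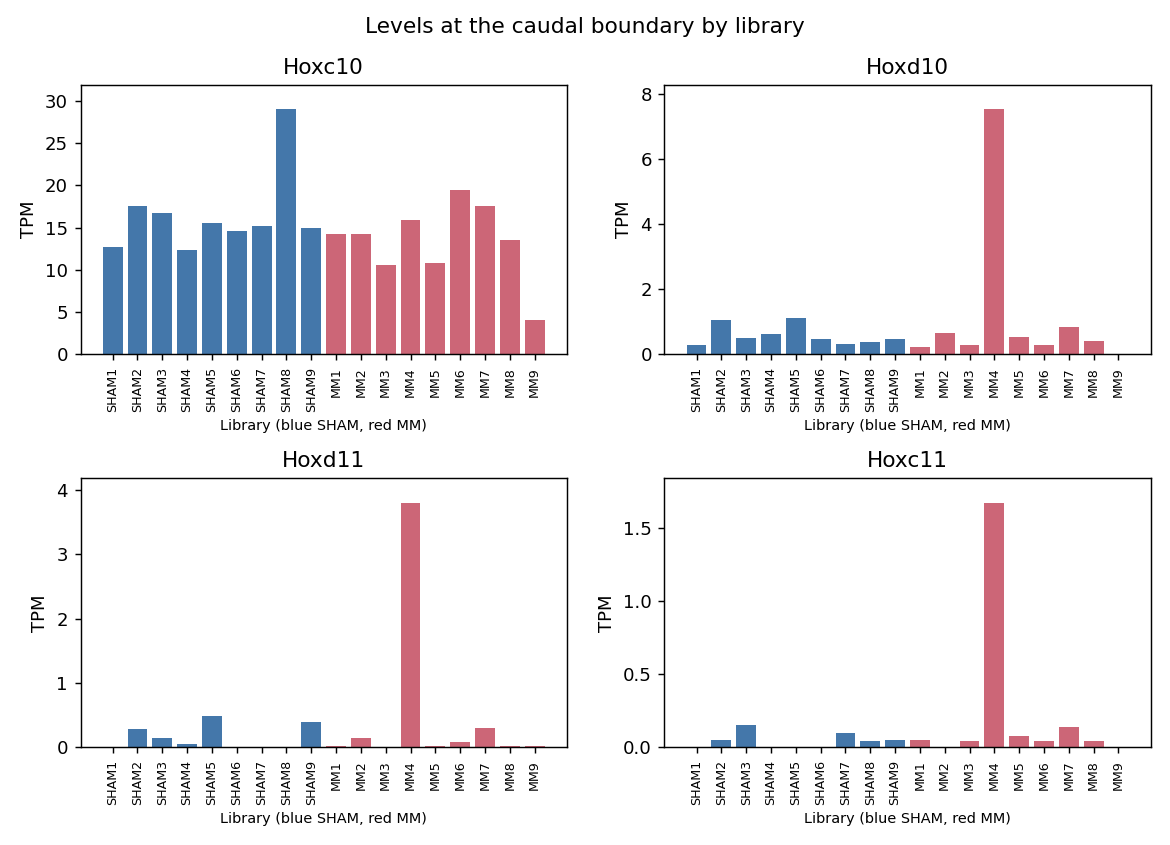
Level (TPM, bars, 1 per library, blue SHAM and red MM) of Hoxc10, Hoxd10, Hoxd11 and Hoxc11, each panel on its own scale from 0. MM4 alone is high for Hoxd10, Hoxd11 and Hoxc11, while for Hoxc10 SHAM8 is highest at 29.0 TPM and MM9 lowest at 4.0 TPM.

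Hoxc10 was set apart by single libraries at both ends. SHAM8, at 29.0 TPM, lay well above the other SHAM libraries, which ended at 17.5 TPM, and MM9, at 4.0 TPM, lay below all others. SHAM8 was also the library with the most skeletal muscle and the most adipocyte signal (48.6 CPM summed, against a SHAM median of 5.37 CPM). SHAM7, which was next in muscle among SHAM libraries with Acta1 (skeletal muscle actin) at 1037 CPM against 5249 CPM in SHAM8, had Hoxc10 at 15.2 TPM, the SHAM median. The part of this tissue in the Hoxc10 value was not tested. In SHAM8 Hoxb9 was at the lowest SHAM value, 9.80 TPM. The log2 fold change of Hoxc10 was -0.28 ± 0.22 (SE, edgeR adjusted p = 0.438), and -0.10 without SHAM8 (adjusted p = 0.773).

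Hoxb13, the most caudal gene of cluster B, known from tail, hindgut and prostate, had reads in 7 MM libraries and in no SHAM library. In MM, where Hoxa13 and Hoxd13 had at most a single read, MM1 had 6, MM3 4, MM4 6, MM5 43, MM6 7, MM8 60 and MM9 50 reads and MM2 and MM7 had 0. It was chosen for a closer description after its values had been seen. The MM mean was 0.953 ± 1.18 CPM (SD, n = 9), at least 6.33-fold higher than the SHAM floor of 0.151 CPM that 3 reads in each library would give. Because it was chosen for this pattern, its levels are given as a description. The gene did not pass the filter on low counts. In fits over all genes, edgeR with no filter gave adjusted p = 0.0962 (1.08% of genes called). Limma on the deposited normalized table gave a difference of 3.09 ± 0.71 (SE) in log2(value + 1) with adjusted p = 0.0364 (1.39% of genes called). Both fits use the values for which the gene was chosen, so no conclusion is drawn from them. Of 30759 genes with any read, 11 or 0.0358% had no SHAM read and reads in at least 7 MM libraries.

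The Hoxb13 reads were most numerous in the MM libraries richest in tumour transcripts, though the order of single libraries was not the same. MM9 had 50 reads against 60 in MM8, which had less Ighg2b. MM6, with Ighg2b at 253 CPM, had 7 reads against 4 in MM3, at 389 CPM. Counting error alone can give differences of this size. Ighg2b, the constant region of the immunoglobulin G2b heavy chain, was highest in MM9, MM8 and MM5, at 4374, 2334 and 2197 CPM, and Hoxb13 reads were most numerous in these same 3 libraries. It was lowest of the MM libraries in MM2 and MM7, at 11.7 and 104 CPM, which had no Hoxb13 read. In the 7 libraries with reads there were between 0.490 and 1.31 Hoxb13 reads per 1000 Ighg2b reads. The highest Ighg2b levels in SHAM were 16.4 and 14.8 CPM. The Ighg2b levels of MM2, MM7 and SHAM were all below the 253 CPM of MM6, the lowest among libraries with Hoxb13 reads. Whether Hoxb13 reads would be seen at such levels was not tested, so no conclusion is drawn from their lack. Without MM5, MM8 and MM9 the MM mean of Hoxb13 was 0.185 CPM, and 4 of 6 libraries had reads. No other member of paralogs 11 to 13 had more than a single read in MM5, MM8 or MM9 apart from Hoxa11 and Hoxc11, with at most 7 and 2, and Hoxd11, with at most 1.2. The source of the Hoxb13 reads was not tested.

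**Figure D5:**
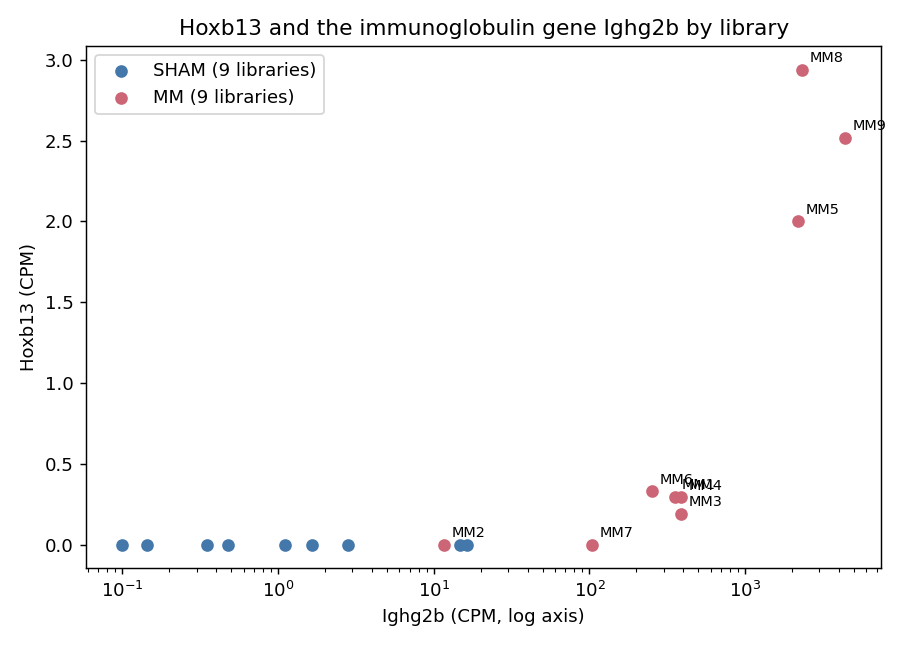
Hoxb13 (CPM) against Ighg2b (CPM, log axis), 1 point per library (blue SHAM, red MM, 9 each, MM libraries named). All SHAM points lie at 0 Hoxb13, and MM5, MM8 and MM9 lie far above the other MM libraries on both axes.

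The partners and regulators of Hox genes were read from the same edgeR fit. The TALE family, homeodomain proteins that bind DNA together with Hox proteins, had 0 of 9 called, against 2.99% of all genes, with a median log2 fold change of -0.07 and 1 of 9 above 0 (51.1% of all genes were below 0). Pknox2 and Pbx2 were its members with the highest SHAM level, at 74.0 ± 12.1 and 45.1 ± 2.40 TPM in SHAM and 59.5 ± 11.4 and 41.8 ± 5.57 TPM in MM (SD, n = 9 each). Of 28 Polycomb group genes, whose complexes keep Hox genes silent, 1 rose and 0 fell, a share near the 2.99% of all genes called. The riser was Phf19, a subunit that recruits the complex PRC2, at 0.706 ± 0.197 CPM in SHAM and 2.98 ± 3.40 CPM in MM (SD, n = 9 each; log2 fold change 2.07 ± 0.49 SE, edgeR adjusted p = 0.0340). Its log2 fold change was 0.88 with adjusted p = 0.245 without MM5, MM8 and MM9. It was 1.33 with counts from length-scaled TPM (edgeR adjusted p = 0.196) and 0.97 on the deposited normalized table (limma adjusted p = 0.324). With DESeq2 it was 2.07 (adjusted p = 0.00117). The call was lost without any single one of MM5, MM8 and MM9 or any single SHAM library but SHAM6, at adjusted p between 0.0573 and 0.0779, with log2 fold changes of 1.46 without MM9 and 1.92 to 2.15 without the others. Of 14 Trithorax and H3K27 demethylase genes, which keep Hox genes active, 0 were called, and Psip1 and Dpy30 had the highest SHAM levels, at 141 ± 12.3 and 71.1 ± 4.94 TPM (SD, n = 9).

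Upstream signals and neighbours gave no calls in edgeR, where 2.99% of all genes were called. Over all 7 lists of partners, regulators and neighbours, DESeq2 called 9 genes (7.61% of all genes) and edgeR 0 to 5 when each library was left out in turn. Of 18 retinoic acid pathway genes, which set early Hox expression, 16 were tested and 0 called, with a median log2 fold change of 0.39 and 11 of 16 above 0 (51.1% of all genes were below 0). Rarg and Rxrb, its receptors with the highest SHAM level, were at log2 fold changes of -0.02 ± 0.14 and 0.03 ± 0.04 (SE). Of 13 axial and limb level regulators 4 were tested and 0 called, and Isl1 and Gdf11 were at -0.14 ± 0.10 and -0.18 ± 0.10 (SE). The limb genes Tbx4, Tbx5 and Pitx1 stayed at or under 0.372 CPM in every library. Of 16 measured non-coding genes of the Hox clusters 6 were tested and 0 called, and Hotairm1 and Hoxd3os1 were at 0.50 ± 0.21 and -0.13 ± 0.13 (SE). The 5 microRNA hairpins among them had no read in any library. Of 16 genes that flank the clusters 14 were tested and 0 called, with a median log2 fold change of 0.02. Atp5g3 and Hnrnpa1 were at 0.08 ± 0.05 and 0.40 ± 0.12 (SE).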

How the data were processed

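RNA of 18 libraries (9 MM, 9 SHAM, each 1 mouse per the series design) was quantified by the authors with Salmon 1.5.2 on GRCm39, per the submitters' processing notes; index and options are not given in the sources used here. Each deposited file lists transcripts with their estimated count, TPM value and effective length in bases, the last estimated by the authors' tool in each library. A further deposited table gives normalized signal for genes, made with DESeq2 per the submitters' processing notes, and 33 of the 39 members are in it.

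The estimated counts were added up over a gene's transcripts and rounded. Transcripts were linked to genes through GENCODE M21, an annotation of an older build, so no positions are given. Of 137562 transcripts 3620 had no gene there. Genes kept by filterByExpr were normalized by TMM, and MM was compared with SHAM by edgeR 4.0.16 (R 4.3.3) in its robust quasi-likelihood form, without further terms, at adjusted p under 0.05. DESeq2 1.42.0 and limma 3.58.1 (on log2 of the deposited signal plus 1) served as alternatives. The fit was tested on simulated data, with 7 false calls. It recovered 64.6% of 1.5-fold, 91.4% of 2-fold and 98.3% of 4-fold changes. Smaller changes, such as the estimates for the Hox members, were not simulated. Libraries held about the same depth, and floors of 3 reads cover counting error only, while intervals of fold changes come from the standard error of the fit and include the spread between mice. Same-numbered libraries of the groups did not deviate together, so the numbers were not used as pairs.

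The members and lists were chosen with earlier results of these data known. Values by library are given for the 10 members with the highest SHAM level, the 3 lowest p in each direction and all Hox10 and Hox11 paralogs. From each list, up to 3 members past the threshold or otherwise the 2 with the highest SHAM level are named. Hoxb13 and the genes compared for MM4 and SHAM8 were chosen after their values were seen. The values of 1 member and 1 sequence are not reported here.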

Additional observations from a re-analysis of the deposited data

Results flagged for a closer look

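Each library was compared with the other 8 of its group for 38 members on the log2(TPM + 0.1) scale, and 10 values stood farther from their nearest neighbour, relative to the group's range, than the 95% critical value of Dixon's test. Chance alone marks about 1 in 20 such groups. At the caudal boundary these were Hoxc11 at 1.67 TPM and Hoxd11 at 3.80 TPM in MM4, and Hoxc10 at 29.0 TPM in SHAM8 and at 4.0 TPM in MM9. Hoxd10 in MM4 was not among them, because MM9 without a read widened the range at the other end. Low values within a group were Hoxa6 at 1.65 TPM in MM3 and Hoxc9 at 6.18 TPM in SHAM7. The remaining 4 rest on 1 to 4 reads in a library whose group was otherwise at 0: Hoxc12 at 0.475 TPM and Hoxc13 at 0.0405 TPM in SHAM2, Hoxa13 at 0.0354 TPM in MM8 and Hoxd13 at 0.0312 TPM in MM5.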

How the results depend on the processing

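The count of Hox genes called was 0 under each alternative run except limma on the deposited table, where it was 1 (Hoxb13). Hoxb13 was described after its values had been seen, and no conclusion is drawn from this call. Among the 15 tested members with values given by library, the lowest adjusted p under any alternative was 0.0912, for Hoxd3 without MM3. Directions turned without MM5, MM8 and MM9 for Hoxa9 (0.04), Hoxa10 (0.09), Hoxb9 (0.10), Hoxd1 (0.06) and Hoxc4 (-0.10), without MM5 for Hoxa2 (-0.02) and Hoxd1 (0.01), without MM9 for Hoxa10 (0.0) and Hoxb9 (0.03), and, chosen after seeing the data, without SHAM7 and SHAM8 for Hoxa2 (-0.04); all are log2 fold changes. Over the libraries left out in turn, Hoxa2 ran from -0.02 to 0.28, Hoxa10 from -0.13 to 0.0, Hoxb9 from -0.16 to 0.03 and Hoxd1 from -0.11 to 0.01. The pathway genes called, 1 as reported, were 0 without a filter on low counts, with coding transcripts only, without MM5, MM8 and MM9, with limma on the deposited table and after SHAM7 and SHAM8 were dropped, 2 with length-scaled TPM and 9 with DESeq2. Phf19 was not among the 2 called with length-scaled TPM. Leaving out each library in turn gave 0 to 5. Over all genes the calls numbered 471 as reported, 333 with no filter, 1201 with DESeq2, 60 without the MM5, MM8 and MM9 libraries, 35 when SHAM7 and SHAM8 were dropped, and 84 to 1014 when each library was left out. The causes were not tested. The number of members at 1 TPM was 26 or 27 over the alternatives at that threshold. It was 29 with the threshold at 0.5 TPM and 25 at 2 TPM. The caudal score difference stayed between -0.07 and 0.44.

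With the replicate number as a block 0 Hox genes were called (lowest adjusted p = 0.320), 0 pathway genes (Phf19 at adjusted p = 0.221) and 8 genes in all. The labels do not say that equal numbers pair mice. The correlation of deviations between same-numbered libraries ran from -0.32 to 0.263, with 2 of 9 over 0.1, and 2 libraries correlated best with their own number. At this depth 3 reads are about 0.14 to 0.16 CPM, so members of paralogs 11 to 13 below that level are not distinguishable from absence.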
